A study of Mus musculus with 8 samples.

Results

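The genes described are 31 genes of protein folding and quality control in the endoplasmic reticulum (ER) of adipocytes, given as a list of gene symbols and matched to the Ensembl identifiers of the count table. All 31 were found among the 43629 genes of the table. They comprise 7 chaperones and co-chaperones of the HSP70 and HSP90 families, 6 lectin chaperones and disulfide isomerases, 2 secreted stress-induced proteins, 5 sensors and transcription factors, 9 genes of ER-associated degradation and 2 subunits of the translocon. Messenger RNA was sequenced from 3T3-L1 cells, a line of mouse pre-adipocytes that becomes adipocytes in culture, here after induction with insulin, dexamethasone, isobutylmethylxanthine and rosiglitazone. On day 8 of differentiation, cells were left untreated, received A66 at 2 µM, received palmitate at 0.5 mM conjugated to BSA, or received palmitate plus A66 at those doses, in each case for 24 h. A66 inhibits p110α, a catalytic subunit of PI 3-kinase, and palmitate is a saturated fatty acid. Each of the 4 groups held 2 libraries, and the doses are those of the labels, which call the controls untreated. The study's methods describe a lower dose of A66 against DMSO vehicle, so the dose and the treatment of the controls are uncertain, and whether cells without palmitate received BSA is not stated. The cells are a cultured line, studied outside adipose tissue, and groups were taken from the sample labels, on which every direction rests. Whether the untreated and A66 labels could have been exchanged was not tested. Such an exchange would reverse the signs of A66 against untreated cells and change the baseline of both palmitate comparisons and of the interaction. It would also change the A66 effect averaged over both palmitate states.

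Proteins that enter the secretory pathway pass through the translocon into the ER, where HSP70 and HSP90 chaperones, lectin chaperones and disulfide isomerases fold them. Proteins that fail to fold are sent back to the cytosol for degradation by the proteasome, a route called ER-associated degradation. When unfolded proteins build up, 3 sensors in the ER membrane, IRE1α (the product of Ern1), ATF6 and PERK (the product of Eif2ak3), start the unfolded protein response. In this response spliced XBP1 and cleaved ATF6 switch on chaperone and degradation genes, and PERK lowers translation and favours ATF4. Adipocytes secrete adipokines in large amounts, and saturated fatty acids are known to disturb the ER membrane in several cell types.

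The promoters of many of these genes carry the ER stress element (CCAAT, 9 bases of any kind, then CCACG), which is bound by NF-Y together with ATF6 or XBP1. Promoter windows from 250 bases before to 50 bases after the transcription start were taken from RefSeq on GRCm38.p6 and searched on both strands. A window was found for 26 of the 31 genes. The element was present in 9 of these 26 genes (34.6%), compared with 37 of all 27025 genes with a window (0.137%). By windows, 39 of 32851 (0.119%) held it. The 9 genes were Hspa5, Hsp90b1, Canx, Calr, Pdia6, Dnajc3, Creld2, Derl3 and Syvn1. The related ER stress element II (ATTGG, 1 base of any kind, then CCACG) was present in 2 of the 26 genes (7.69%) and in 12 of all genes (0.0444%). The short element CCACG alone, which is contained in both longer elements, occurred in 21 of 26 genes (80.8%) and in 35.5% of all genes. The letters TGACGTG occurred only in the Hspa5 window, 1 of 26 (3.85%), compared with 2.22% of all genes. These matches describe letters in a window of 300 bases and are no evidence of binding.

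The matches are given for genes with a difference in expression, and for Derl3, which was silent. Sequences are on the strand of the gene, and the capitals mark both ends of the element, so that a match on the other strand reads CGTGG followed by ATTGG. Positions count from the transcription start, with the last base before it as -1.
Hspa5, chr2:34772020-34772048, plus strand, element from -65 to -47: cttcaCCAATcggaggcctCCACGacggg
Hsp90b1, chr10:86705633-86705661, minus strand, element from -212 to -194: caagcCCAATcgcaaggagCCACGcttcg
Hsp90b1, chr10:86705528-86705556, minus strand, element from -107 to -89: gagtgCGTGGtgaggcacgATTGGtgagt
Canx, chr11:50325795-50325823, minus strand, element from -145 to -127: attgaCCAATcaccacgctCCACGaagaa
Pdia6, chr12:17266486-17266514, plus strand, element from -98 to -80: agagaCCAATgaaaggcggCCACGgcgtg
Syvn1, chr19:6046527-6046555, plus strand, element from -44 to -26: cgcaaCCAATcggcggtagCCACGggaac
Derl3, chr10:75893237-75893265, plus strand, element from -156 to -138: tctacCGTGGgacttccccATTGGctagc
Herpud1, chr8:94386372-94386392, plus strand, element II from -52 to -42: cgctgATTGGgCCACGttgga
Hsp90b1 was the gene printed with more than 1 match, and its 2 elements lay on opposite strands. Hyou1, Manf, Atf6, Derl1 and Sec61a1 had no window in the table.

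Libraries held between 42247091 and 57529803 counts. The share of counts taken by the 31 genes was 0.758% and 0.770% in the untreated libraries, 0.737% and 0.735% in the A66 libraries, 0.825% and 0.780% in the palmitate libraries, and 0.812% and 0.789% where both agents were given. Both palmitate groups therefore lay above both groups without palmitate in every library, and both A66 libraries lay lowest. The 12 adipocyte markers examined were all expressed, with a summed level of 10150 to 10433 CPM (counts scaled to the library total after TMM normalization in edgeR) in untreated cells, 10306 to 10924 with A66, 9193 to 10106 with palmitate and 8867 to 9651 with both. For the 10 markers of pre-adipocytes and fibroblasts, Dlk1 was at 0 in every library and the summed levels were 7542 to 7846, 7559 to 7620, 7996 to 8414 and 7220 to 7542 CPM in the same order. Of the 9 of these markers tested, 2 were called higher for palmitate against untreated cells, Col1a1 (0.25) and Postn (0.32). In that comparison 1.17% of all genes were called and 0.631% were called higher. The same 2 markers were called lower for A66 added to palmitate (-0.33 and -0.36), where 2.81% of all genes were called in either direction. The 5 macrophage markers, with Adgre1 at 0, summed to 2.80 to 3.70 CPM in untreated cells, 2.92 to 3.43 with A66, 4.01 to 4.41 with palmitate and 5.65 to 5.96 with both. Most of this was Cd68, a lysosomal protein also found outside macrophages, which was called higher for palmitate plus A66 against A66 (0.91, adjusted p = 0.0014) and for palmitate averaged over both A66 states (0.67, adjusted p = 7.61e-04). The 4 endothelial markers summed to between 0.847 and 1.28 CPM with Kdr at 0. Adipocyte marker levels were thus lower in palmitate plus A66 than in either group without palmitate, with 8 of the 12 markers called lower both for palmitate plus A66 against A66 (median -0.25) and for palmitate averaged over both A66 states (median -0.17), where 2.73% and 5.05% of all genes were called in either direction. For A66 added to palmitate, 3 of the 12 were called lower, where 2.81% of all genes were called. For A66 averaged over both palmitate states, 4 of the 12 were called lower, where 4.97% of all genes were called. For palmitate against untreated cells, 1 of the 12 was called lower and 11 had a negative sign, where 1.17% of all genes were called. For A66 against untreated cells, 0 of the 12 were called and 8 had a positive sign, where 1.84% of all genes were called. The part of these marker levels in the differences of the 31 genes was not tested.

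Differences are log2 fold changes from the quasi-likelihood test of edgeR, with the standard error (SE) and a p-value adjusted by Benjamini-Hochberg over all genes tested, and a gene was called at an adjusted p under 0.05. Of the 31 genes, 30 passed the filter on low counts. Derl3, a derlin of ER-associated degradation, had 0 counts in all 8 libraries, which allows a level of up to 0.0519 to 0.0707 CPM per library, a limit that covers counting error only. In a bulk sample, fewer cells expressing a gene and less of its RNA per cell cannot be told apart.

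The most abundant member per kilobase of exon was Hspa5, which encodes BiP, the HSP70 of the ER, at 303 CPM per kb over all 8 libraries. P4hb (292), the disulfide isomerase PDI, Calr (263), the lectin chaperone calreticulin, and Hsp90b1 (177), the HSP90 of the ER known as GRP94, followed. Pdia3, Pdia4 and Canx lay between 134 and 154 CPM per kb, and Derl1 (79.6) was the highest gene outside the folding groups. At the other end, Derl2 (8.85), Eif2ak3 (7.37) and Sdf2l1 (6.49) were the lowest of the detected genes. Folding genes thus filled the 7 highest places, whereas the 3 sensors were lower, with Atf6 at 15.3, Ern1 at 14.2 and Eif2ak3 at 7.37.

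**Figure D1:**
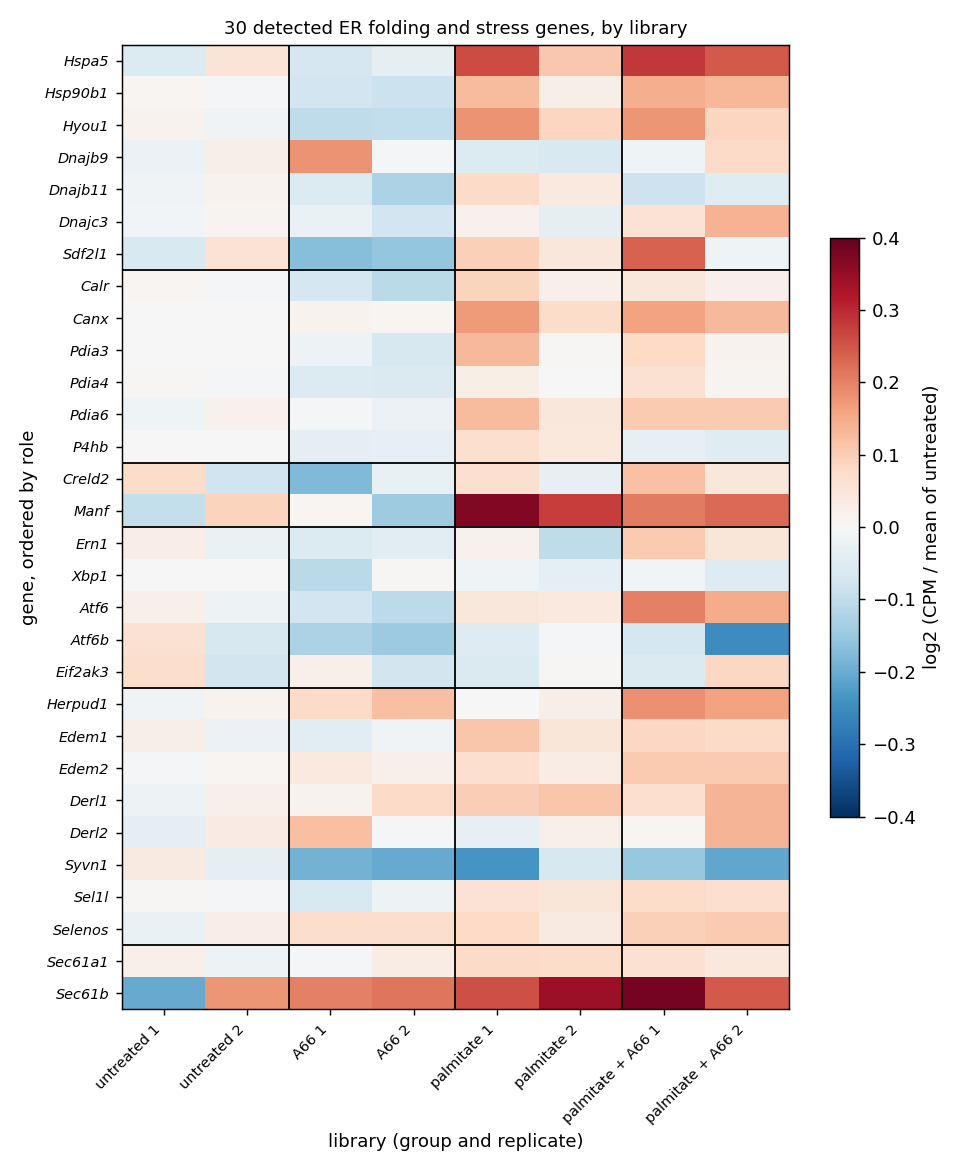
Heat map of the 30 detected genes (rows, ordered by role and separated by black lines) in the 8 libraries (columns, 2 per group), coloured by the log2 ratio of CPM to the mean of the untreated libraries. Both palmitate groups are mostly red, with 22 to 24 of 30 genes above the untreated mean in each library, and both A66 libraries are mostly blue, with 10 and 8 above it.

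Palmitate was compared with untreated cells to ask how a saturated fatty acid alone altered these genes. The 30 genes lay slightly higher, with a median log2 fold change of 0.055, compared with 0.00053 over all 14587 genes tested. The sign was positive for 22 genes and negative for 8. By library, the median log2 ratio to untreated cells was 0.072 in palmitate replicate 1 and 0.033 in replicate 2, so the sign was shared and replicate 1 was higher. Only Manf was called, 1 of 30 genes (3.33%), where 1.17% of all genes were called and 0.631% were called higher. Without adjustment, 8 of the 30 had a p under 0.05, whereas 12% of all genes did. A single call is the smallest share above 0 that 30 genes can give and is described for the gene, not for the group.

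Manf encodes a secreted neurotrophic factor that is also held in the ER and is induced by ER stress. Its level was 35.6 and 40.6 CPM in untreated cells and 49.3 and 46.2 CPM with palmitate. Both palmitate libraries lay above both untreated ones, although the untreated pair itself was spread. The log2 fold change was 0.32 (SE 0.063, adjusted p = 0.00935), a 1.25-fold rise. The call was lost without untreated replicate 1 (0.23, adjusted p = 0.174) or without palmitate replicate 1 (0.27, adjusted p = 0.155). Parts of Manf exons are overlapped by genes on the opposite strand, 4930524O07Rik (4.71% of exon bases) and Dcaf1 (4.14%), and the strand setting of the count was not given in the sources used here. With a library left out, the Manf value ran from 0.23 to 0.42.

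Hspa5 was at 1148 and 1237 CPM in untreated cells and at 1428 and 1286 CPM with palmitate. The groups did not overlap, but the difference was not called (0.19, SE 0.049, adjusted p = 0.066), and its interval ran from 0.086 to 0.29. Sec61b, the beta subunit of the translocon, had the second highest log2 fold change at 0.29 (SE 0.088, adjusted p = 0.126). Its levels were 17.8 and 23.1 CPM in untreated cells and 24.4 and 25.9 CPM with palmitate, with much of the distance coming from untreated replicate 1. Syvn1, the ubiquitin ligase HRD1, had the lowest value of all 30 genes, at -0.15 (SE 0.054, adjusted p = 0.235).

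A66 was compared with untreated cells to ask what inhibition of p110α did in the absence of palmitate. The genes lay slightly to the other side, with a median log2 fold change of -0.043, compared with -0.0011 over all 14158 genes, 9 genes with a positive sign and 21 with a negative one. The medians of the A66 libraries were -0.040 and -0.037, with little spread between replicates. Again 1 of 30 genes was called, where the share was 1.84% of all genes in both directions and 0.77% in the lower direction. Of the 30, 8 had an unadjusted p under 0.05, and 12.8% of all genes did.

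The gene called was Syvn1, which ubiquitinates proteins leaving the ER. It was at 67.4 and 64.1 CPM in untreated cells and at 57.7 and 57.2 CPM with A66, with no overlap. The log2 fold change was -0.19 (SE 0.049, adjusted p = 0.0417), with an interval from -0.29 to -0.090. This call was lost without untreated replicate 1 (adjusted p = 0.14), A66 replicate 1 (0.268) or A66 replicate 2 (0.324), in the Wald test of DESeq2 (0.0958), and when the palmitate libraries shared the fit (0.0862). Without untreated replicate 2 the Syvn1 value was -0.22. With palmitate, Syvn1 was at 55.8 and 63.0 CPM without A66 and at 59.2 and 56.9 CPM with it.

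Of the chaperones, Hyou1 was at 155 and 152 CPM in untreated cells and at 143 and 143.5 CPM with A66, a log2 fold change of -0.096 that was not called (SE 0.041, adjusted p = 0.30). Calr and Atf6 lay in the same range, with log2 fold changes of -0.087 and -0.089 and adjusted p-values of 0.306 and 0.370. All 5 sensors and transcription factors had negative values, from -0.13 for Atf6b to -0.020 for Eif2ak3, and none was called. Herpud1, which recruits the HRD1 complex, went the other way, at 91.1 and 92.8 CPM in untreated cells and 97.0 and 99.9 CPM with A66 (0.10, SE 0.043, adjusted p = 0.306).

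Palmitate plus A66 was compared with A66 to ask what palmitate did when p110α was inhibited. Of the 4 pairwise comparisons, this held the most calls among the 30 genes. The median log2 fold change of the 30 genes was 0.10, compared with 0.00044 over all genes, and 27 of the 30 had a positive sign. Of the 30, 5 were called (16.7%), and all 5 were higher, where 2.73% of all genes were called and 1.46% were called higher. The count of genes with an unadjusted p under 0.05 was 15 of 30, compared with 14.6% of all genes. The number of calls depended on the libraries in the fit, and the shares above belong to the fit of all libraries. With a library left out, the median of the 30 genes ran from 0.094 to 0.11. Palmitate against untreated cells and this comparison share no library, but this comparison shares the A66 libraries with that of A66 against untreated cells.

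The HSP70 and HSP90 group held 3 of the 5 calls. Hspa5 was at 1138 and 1160 CPM with A66 and at 1450 and 1413 CPM with palmitate plus A66, a log2 fold change of 0.32 (SE 0.049, adjusted p = 3.22e-04) and a 1.25-fold rise. The call held when any library was left out, with values from 0.299 to 0.335. Hsp90b1 was at 661 and 657 CPM with A66 and at 771 and 764 CPM with both agents, with a log2 fold change of 0.22 (SE 0.042, adjusted p = 0.00314). Its replicates differed by less than 7 CPM in either group, a fraction of the distance between them. Its call was lost without A66 replicate 1 (adjusted p = 0.0671), A66 replicate 2 (0.0546) or palmitate plus A66 replicate 1 (0.0508), with values from 0.21 to 0.22. An opposite-strand gene, 1810014B01Rik, covers 10.3% of its exon bases.

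Hyou1, an ER chaperone of the HSP110 type that acts as an exchange factor for BiP, was at 143 and 143.5 CPM with A66 and at 174 and 163 CPM with both agents. Its log2 fold change was 0.23 (SE 0.044, adjusted p = 0.00348), and the call was lost without A66 replicate 1 (adjusted p = 0.0719) or palmitate plus A66 replicate 1 (0.185, adjusted p = 0.124). The 4 other genes of the group are co-chaperones of BiP and partners of theirs and were not called. Dnajc3 stood at 0.15 (adjusted p = 0.0726), Sdf2l1 at 0.28 with a wide SE of 0.118, Dnajb11 at 0.025 and Dnajb9 at -0.061. Dnajb9, or ERdj4, also represses IRE1α, and its value was the lowest of the 30 genes here.

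Manf was at 38.3 and 34.5 CPM with A66 and at 44.0 and 44.55 CPM with palmitate plus A66 (0.28, SE 0.064, adjusted p = 0.0138). Its call was lost without A66 replicate 2 (0.21, adjusted p = 0.22) or without palmitate plus A66 replicate 1 (0.0848) or 2 (0.0742). Atf6, the membrane-bound transcription factor that is cleaved in the Golgi, was at 130 and 128 CPM with A66 and at 158 and 152.5 CPM with both agents. The log2 fold change was 0.27 (SE 0.041, adjusted p = 3.22e-04), and the call held when any library was left out, with values from 0.24 to 0.29. The values concern the RNA of Atf6, and cleavage of the protein was not measured.

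The other groups followed with smaller values. Of the 6 lectin chaperones and disulfide isomerases 5 had a positive sign, with a group median of 0.11 and 0.13 for Canx (adjusted p = 0.0924), and none was called. P4hb, the most abundant of them, was at 819 and 820 CPM with A66 and at 820 and 811 CPM with both agents. All 8 detected genes of ER-associated degradation had positive values, from 0.015 for Syvn1 to 0.11 for Sel1l, the adaptor of HRD1 and the gene with the highest CPM of this group, and none was called. Both translocon genes were positive and uncalled, at 0.038 for Sec61a1 and 0.11 for Sec61b. Creld2, a secreted isomerase-like protein, stood at 0.18 (SE 0.084, adjusted p = 0.303).

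**Figure D2:**
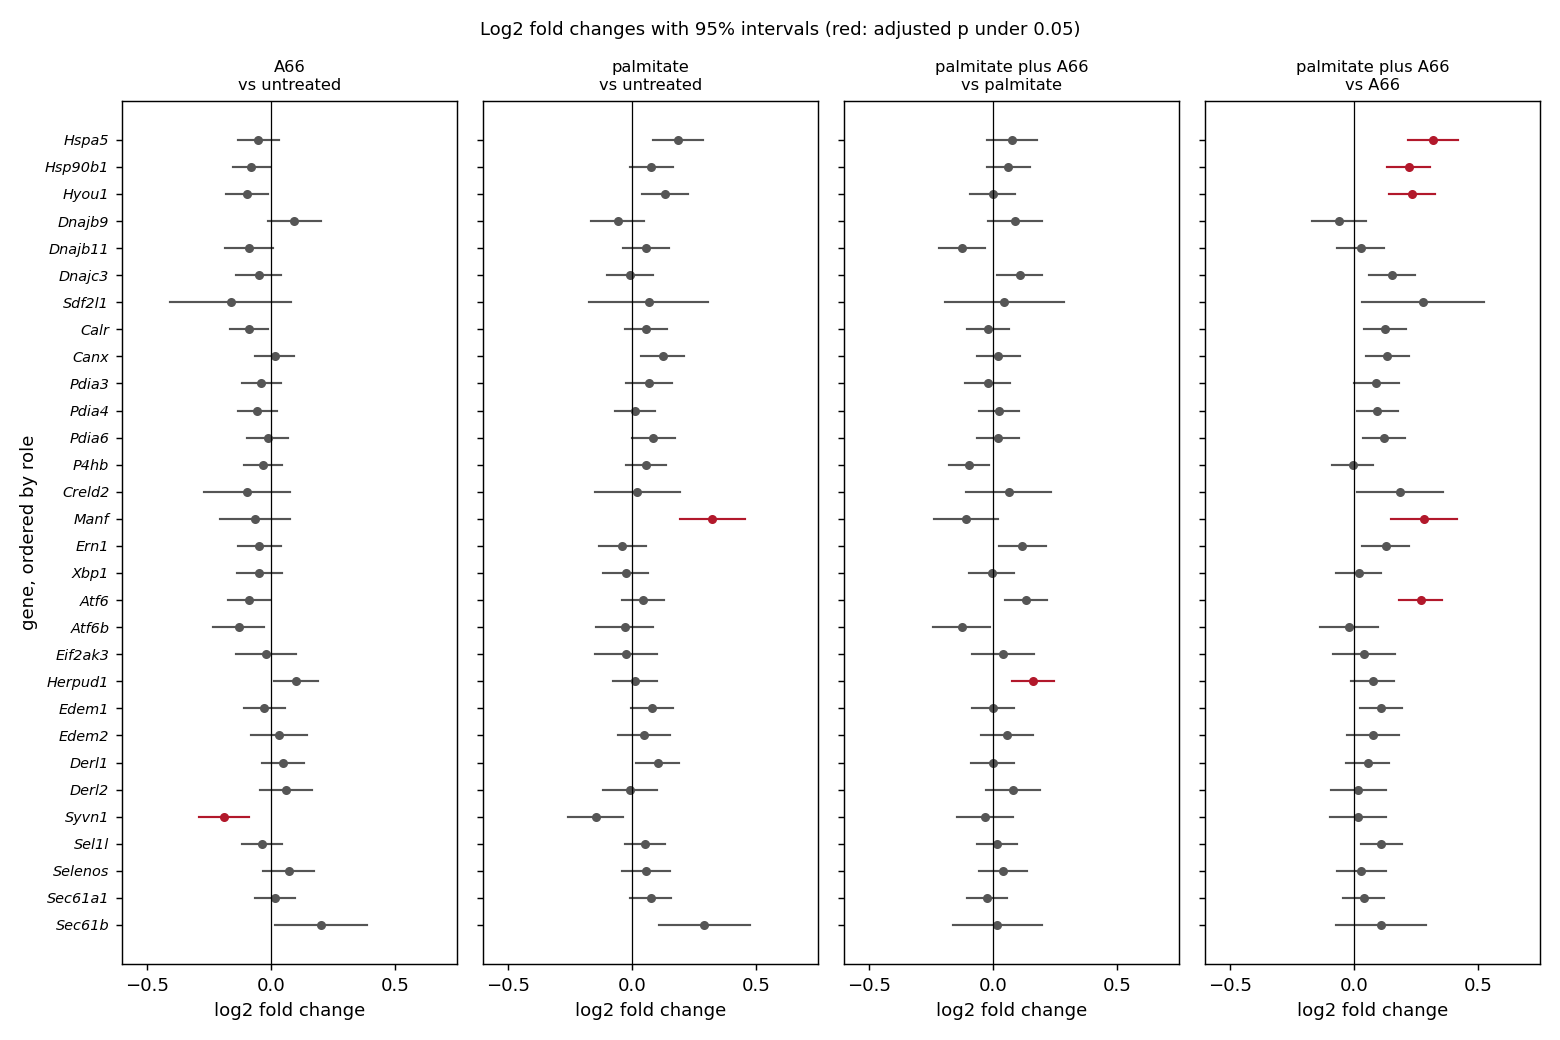
Log2 fold change (x axis) of each of the 30 detected genes (y axis, by role) in 4 comparisons, with 95% intervals, and in red the genes with an adjusted p under 0.05. The called genes are Syvn1 for A66, Manf for palmitate, Herpud1 for A66 added to palmitate, and Hspa5, Hsp90b1, Hyou1, Manf and Atf6 for palmitate added to A66.

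Palmitate plus A66 was compared with palmitate alone to ask what A66 did in cells exposed to palmitate. The median was 0.020, compared with -0.00079 over all genes, with 18 positive and 12 negative signs, and it was 0.00068 with scaling by library size alone and 0.0096 to 0.044 with a library left out. Of the 30 genes, 7 had an unadjusted p under 0.05. The corresponding share of all genes was 14.4%. Herpud1 was the 1 gene called of 30, where 2.81% of all genes were called and 0.973% were called higher. It was at 92.1 and 93.4 CPM with palmitate and at 104 and 103 CPM with both agents (0.16, SE 0.042, adjusted p = 0.0354). The replicates differed by less than 2 CPM, while the call was lost with scaling by library size alone (adjusted p = 0.0783) and without either replicate of A66 (0.0533 and 0.0565), palmitate (0.13 and 0.122) or palmitate plus A66 (0.215 and 0.137). Dnajb11 and Atf6b lay lowest, at -0.12 (adjusted p = 0.163) and -0.13 (adjusted p = 0.290).

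The interaction, the change of the A66 effect between cells with and without palmitate, was called for 0 of the 30 genes by edgeR and for 0 by DESeq2. Of all genes 0.00686% were called, a single gene, and 7.92% had an unadjusted p under 0.05, as had 5 of the 30. Values ranged from -0.18 for Sec61b to 0.22 for Atf6, with a median SE of 0.063. For Atf6, the lowest unadjusted p belonged to a value of 0.22 (SE 0.058, adjusted p = 0.295). Its level was 139 and 136 CPM in untreated cells against 130 and 128 CPM with A66, and 142 and 141 CPM with palmitate against 158 and 152.5 CPM with both agents. The A66 effect was -0.089 without palmitate (adjusted p = 0.370) and 0.13 with it (adjusted p = 0.0906), and neither was called. The larger number of calls for palmitate in A66-treated cells than in cells without A66 is therefore not shown to be a difference between the 2 palmitate effects.

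The palmitate effect was also averaged over cells with and without A66, a comparison chosen after the data had been seen and made of the same libraries. Of the 30 genes 7 were called (23.3%), all higher, where 5.05% of all genes were called and 2.73% were called higher. Unadjusted p-values under 0.05 were found for 15 genes, compared with 17.6% of all genes. The median was 0.075 and 26 genes were positive. The 7 were Manf (0.30, SE 0.045, adjusted p = 1.42e-04), Hspa5 (0.25, SE 0.034, adjusted p = 5.35e-05), Hyou1 (0.18, SE 0.031, adjusted p = 7.5e-04), Atf6 (0.16), Hsp90b1 (0.15), Canx (0.13) and Pdia6 (0.10). For each of these, all 4 libraries with palmitate lay above all 4 without it, as they did for 13 of the 30 genes (43.3%) and for 4.08% of all genes tested.

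Canx, the membrane-bound lectin chaperone calnexin, was at 600, 600, 606 and 604 CPM without palmitate and at 675.5, 632, 670 and 656.5 CPM with it. The adjusted p was 0.00976, and it was 0.0558 without A66 replicate 1, 0.0542 without A66 replicate 2 and 0.055 without palmitate plus A66 replicate 1. Pdia6, a disulfide isomerase that also attenuates IRE1α, was at 201, 206, 202.5 and 201 CPM without palmitate and at 222, 210, 219 and 219 CPM with it. Its adjusted p was 0.0407, and it rose to 0.0895 with scaling by library size alone, to 0.0562 with an offset for transcript length, and to between 0.102 and 0.184 without untreated replicate 1, palmitate replicate 1 or any replicate of the A66 and the palmitate plus A66 groups. The other 5 calls held when any library was left out, with adjusted p-values up to 0.0233. With a library left out, the median of the 30 genes in that averaged comparison ran from 0.057 to 0.082.

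**Figure D3:**
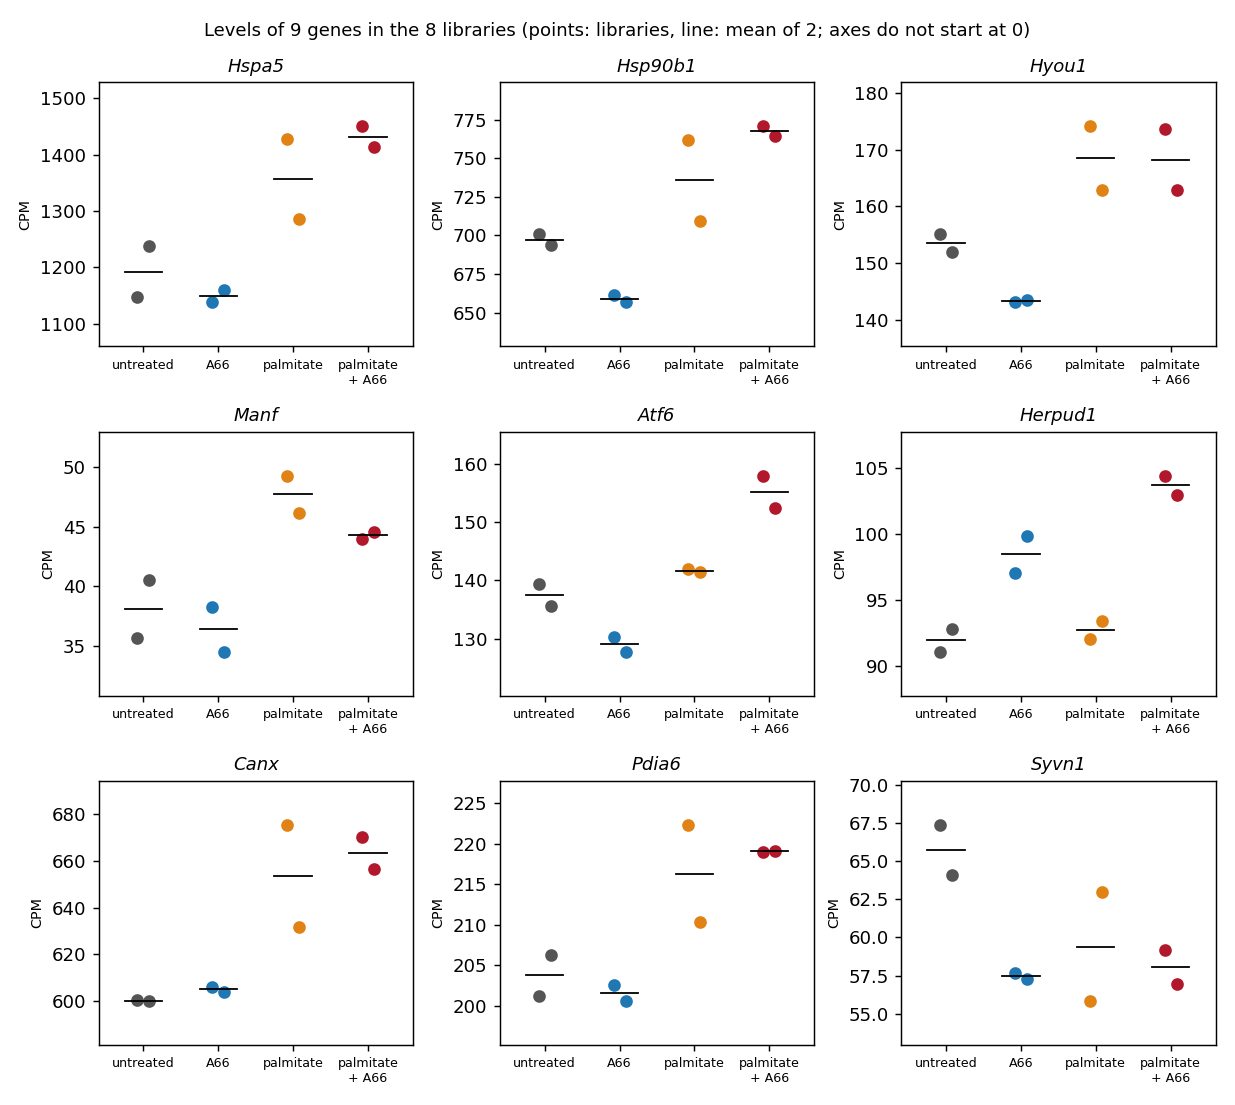
Level in CPM (y axis, not starting at 0) of 9 genes in the 8 libraries, as points by group with the mean of 2 libraries as a line. For all genes shown except Herpud1 and Syvn1 the 4 palmitate libraries lie above the 4 others, whereas for Herpud1 the 4 libraries with A66 lie above the 4 without it.

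Of the 7 genes called for the averaged palmitate effect, the 4 with a promoter window (Hspa5, Hsp90b1, Canx and Pdia6) held the ER stress element. Among all members with a window, 9 of 26 held it, and a link between the element and the calls was not tested. The element was held as well by Calr, Creld2, Dnajc3 and Syvn1, which were not called for palmitate, and by Derl3, which was not detected. Calr was at 711 ± 13.4 CPM with A66 and 774 ± 9.49 CPM with both agents (mean ± SD, n = 2), a difference of 0.12 on the log2 scale that was not called (adjusted p = 0.120).

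The same averaging for A66 gave 1 call of 30, where 4.97% of all genes were called, and 6 of 30 had an unadjusted p under 0.05, compared with 17.9% of all genes. The median of the 30 genes was -0.0077. The call was Herpud1 (0.13, SE 0.030, adjusted p = 0.0101), whose 4 libraries with A66, from 97.0 to 104 CPM, lay above the 4 without it, from 91.1 to 93.4 CPM. Its adjusted p was 0.0699 without A66 replicate 2. With a library left out, the Herpud1 value ran from 0.12 to 0.14. The share of all genes whose A66 libraries lay above the others in this way was not counted. Herpud1 carries the ER stress element II printed above, and its averaged palmitate difference was 0.043 (adjusted p = 0.489). Dnajb11, the other gene with element II, had an averaged A66 difference of -0.11 (adjusted p = 0.0517) and was not called. A link between the element and A66 was not tested.

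Of the sensors and transcription factors other than Atf6, none was called. Xbp1, whose RNA is spliced by IRE1α, was at 143 and 142.5 CPM in untreated cells, 133 and 143 CPM with A66, 141 and 139 CPM with palmitate, and 142 and 138 CPM with both agents. Its log2 fold changes lay between -0.046 and 0.018 in the pairwise comparisons, with an interval for palmitate from -0.12 to 0.064. The counts are per gene, so the spliced form was not measured. Eif2ak3 ranged from 42.5 to 47.3 CPM over the 8 libraries and its replicates differed by more than the group means, which lay between 43.9 and 45.1 CPM. Ern1 was at 118 and 114 CPM in untreated cells, 112 and 112 CPM with A66, 117 and 108 CPM with palmitate, and 125 and 120 CPM with both agents, where the 0.13 above A66 was not called (adjusted p = 0.157). Atf6b, a relative of Atf6, was at 70.9 and 64.95 CPM in untreated cells, 62.2 and 61.5 CPM with A66, 65.45 and 67.5 CPM with palmitate, and 64.7 and 57.1 CPM with both agents. All 4 libraries with A66 lay below all 4 without it, as for 3 of the 30 genes (10%) and 4% of all genes tested. The averaged A66 difference was -0.13 (SE 0.039, adjusted p = 0.0606), the lowest of the 30 genes in that comparison, and it was not called.

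Within ER-associated degradation, Derl1, a channel component, lay between 250 and 257 CPM in untreated cells and between 271 and 273.5 CPM with palmitate (0.10, adjusted p = 0.286). Edem1, a mannosidase-like protein that marks glycoproteins for disposal, was at 249 and 241 CPM in untreated cells and at 265 and 253 CPM with palmitate (0.081, adjusted p = 0.439). Sel1l was at 334 and 331 CPM in untreated cells, 318.5 and 328 CPM with A66, 346 and 344 CPM with palmitate and 350 and 348 CPM with both agents. The palmitate groups lay above the others, but the averaged difference of 0.082 was not called (adjusted p = 0.0962). Edem2, Derl2 and Selenos, which serve the same route, had log2 fold changes between -0.0078 and 0.081 in the 4 pairwise comparisons. Selenos, a selenoprotein that links derlins to p97, differed by less than 2 CPM between replicates in each group.

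Further genes of the pathway were examined in 5 lists. Among 36 other folding enzymes and co-chaperones, the signs for palmitate against untreated cells were positive for 31, with a median of 0.073 and 1 call, where 50.2% of all genes had a positive sign and 1.17% were called. The call was Serpinh1, the collagen chaperone HSP47, at 391 and 398 CPM in untreated cells and 461 and 457 CPM with palmitate (0.22, adjusted p = 0.00323), a call that held when any library was left out. In palmitate plus A66 against A66 the median was 0.025, with 24 of 36 positive and 1 call, where 2.73% of all genes were called. The call was Ero1a, the oxidase that reloads disulfide isomerases, which was at 821 and 832 CPM in untreated cells, 660 and 712 CPM with A66, 922 and 832 CPM with palmitate and 842 and 814 CPM with both agents. It fell with A66 by 0.27 on the log2 scale (adjusted p = 5.56e-04, held without any library) and was 0.27 higher with both agents than with A66 (adjusted p = 0.00164, or 0.122 without A66 replicate 1). In palmitate plus A66 against palmitate, 28 of the 36 signs were negative, and Txndc5 (-0.17, adjusted p = 0.022) and Rcn3 (-0.21, adjusted p = 0.044) were called lower, where 2.81% of all genes were called in either direction. Both calls were lost without either replicate of either group compared, with adjusted p-values from 0.0642 to 0.199 for Txndc5 and from 0.065 to 0.273 for Rcn3. The Rcn3 call was lost in DESeq2 as well (0.0559), and with only the 4 libraries compared in the fit Rcn3 (0.0587) was not called.

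Of 29 other genes of ER-associated degradation 28 were tested, and none was called in any of the 4 pairwise comparisons, with medians between -0.021 and 0.016. Of 32 genes of translocation, signal peptidase and oligosaccharyltransferase, 29 had a positive sign for palmitate against untreated cells, with a median of 0.079 and 0 calls. Spcs3, a signal peptidase subunit, was called for palmitate plus A66 against A66 (0.18, adjusted p = 0.017), and the call was lost without either replicate of either group (0.081 to 0.173). Spcs1, another subunit, rose with A66 (0.20, adjusted p = 0.0142), and this call was lost without A66 replicate 1 (0.239) or 2 (0.0956). Ost4, of the oligosaccharyltransferase, was called lower for A66 added to palmitate (-0.16, adjusted p = 0.046). That call was lost without either replicate of A66, palmitate or palmitate plus A66 (adjusted p = 0.0708 to 0.419), and with only the 4 libraries compared in the fit (0.0615). Averaged over both A66 states, palmitate gave 4 calls of 36 in the folding list, 1 of 28 in the degradation list, 7 of 32 in the translocation list, 2 of 18 among regulators of the sensors and 6 of 14 in the PERK arm and integrated stress response, all higher, where 5.05% of all genes were called and 2.73% were called higher.

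Among 18 regulators of the sensors, Wfs1, a regulator of ATF6 turnover, was called higher for palmitate (0.25, adjusted p = 0.0334). That call was lost without untreated replicate 1 (0.0731) or 2 (0.188) or palmitate replicate 1 (0.308). Creb3l1, a membrane-bound factor related to ATF6, was lower for A66 added to palmitate, from 28.0 and 30.2 CPM to 24.1 and 22.5 CPM (-0.32, adjusted p = 0.00904). Its call was lost without palmitate replicate 2 (0.147) or palmitate plus A66 replicate 2 (0.145).

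The last list held 14 genes of the PERK arm and the integrated stress response. In palmitate plus A66 against A66, 12 of 14 were positive, with a median of 0.10, and 4 were called, all higher, where 2.73% of all genes were called, 1.46% were called higher and the median of all genes was 0.00044. Ppp1r15a, the phosphatase subunit GADD34, was at 81.4 and 83.1 CPM with A66 and 113 and 100 CPM with both agents (0.37, adjusted p = 1.22e-04). Asns, asparagine synthetase and a target of ATF4, was at 186 and 186 CPM with A66 and 234 and 228 CPM with both agents (0.32, adjusted p = 1.3e-04). Both calls held when any library was left out. Atf4 and Atf3 were the other 2, named because 4 genes were called. Their levels were 306 and 321 CPM with A66 and 376 and 372 CPM with both agents for Atf4, and 19.1 and 18.8 CPM with A66 and 31.4 and 29.3 CPM with both agents for Atf3.

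In the other comparisons of this list, no gene was called for palmitate against untreated cells, and the range of its values was -0.12 to 0.33. Nupr1, a stress-induced nuclear protein, was lower with A66 (251 and 245 CPM in untreated cells, 198 and 204 CPM with A66; -0.30, adjusted p = 1.42e-04). It was also lower for A66 added to palmitate (-0.17, adjusted p = 0.0163), although without palmitate replicate 2 (0.139) or palmitate plus A66 replicate 1 (0.159) or 2 (0.0822) that call was lost. Ddit4, an inhibitor of mTORC1, went from 20.6 and 23.2 CPM with palmitate to 16.3 and 15.9 CPM with both agents (-0.45, adjusted p = 0.00316, or 0.0705 without palmitate replicate 2). Atf3 was higher for A66 added to palmitate (0.38, adjusted p = 0.0309), a call that was lost in DESeq2 (0.26) and without palmitate replicate 2 (0.23, adjusted p = 0.412) or palmitate plus A66 replicate 1 (0.33, adjusted p = 0.215) or 2 (0.43, adjusted p = 0.0653). Without palmitate replicate 1 the value was 0.56.

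**Figure D4:**
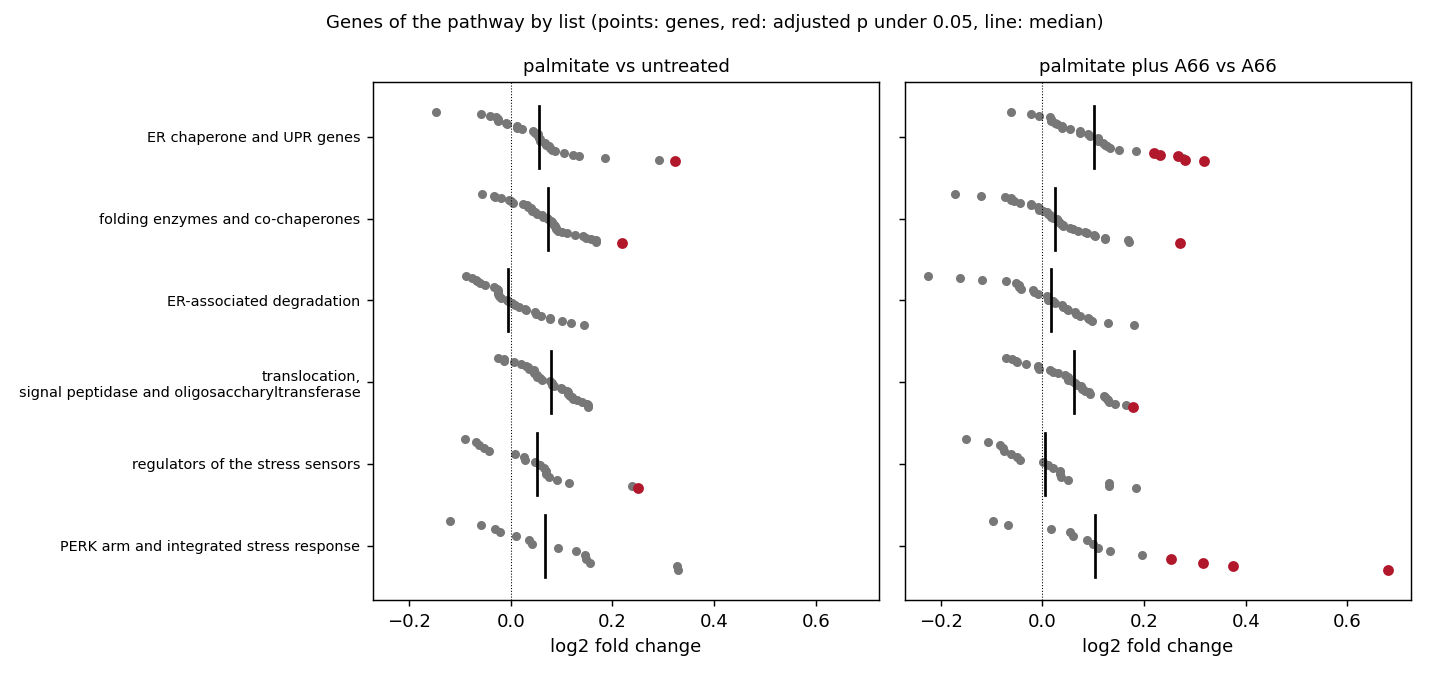
Log2 fold changes (x axis) for palmitate against untreated cells and for palmitate plus A66 against A66, by list (y axis), with each gene as a point, called genes in red and the median of the list as a line. For palmitate plus A66 against A66, 5 of 30 ER chaperone and UPR genes and 4 of 14 genes of the PERK arm and integrated stress response are called, where 2.73% of all genes were called and 1.46% were called higher.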

How the data were processed

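Per the labels and the study's methods, polyadenylated RNA of 8 cultures (2 biological repeats per group) was sequenced from stranded libraries in paired ends, and the authors aligned reads to GRCm38 with TopHat2 2.0.11 and counted them per gene with HTSeq. The authors deposited raw counts, without normalization, beside DESeq2 output (mean, log2 fold change, its error, test statistic and p-values), which was not used. Annotation and strand setting are not given in the sources used here. Separate differentiations are not stated, so p-values measure the spread between these libraries.

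Symbols (42462 of 43629 genes) and exon lengths came from GENCODE M21. The 327 unmatched genes with counts held 0.126% of counts. Counts were tested in R 4.3.3 with edgeR 4.0.16 (TMM, filterByExpr with a minimum count of 10, quasi-likelihood test, Benjamini-Hochberg adjustment over all genes). A66 against untreated was fitted on the 4 libraries without palmitate and the other comparisons on all 8. CPM are TMM-scaled, and intervals are at 95%. With 2 libraries against 2, an exact permutation test cannot go below p = 0.333, so none was run. The biological coefficient of variation was 0.0377 and 0.0406 in these fits, and replicates of a group differed by a mean chi-square of 6.43 to 9.49 per gene, where counting noise gives about 1. Same-numbered libraries did not deviate together (correlations -0.0183 to 0.0481 over 14587 genes). Scripts were tested on simulated data.

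Genes and lists were chosen with earlier results of these data known. Genes with an adjusted p under 0.05, the member of highest CPM in each role and, from each further list, up to 2 genes per direction and comparison are named, and other genes named were chosen after their values were seen. Both averaged comparisons were added after seeing the data. Alternatives were RLE or library size scaling, other filters, DESeq2 1.42.0, other libraries in the fit, a replicate block, a length offset (loess, span 0.4) and leaving out each library. Protein sequences were not analysed here.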

Additional observations from a re-analysis of the deposited data

Results flagged for a closer look

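In 5 of the 30 genes tested, both A66 libraries lay below both untreated libraries without palmitate, while both palmitate plus A66 libraries lay above both palmitate libraries. Groups on opposite sides in either direction were found in 16.7% of the 30 and in 5.47% of all 14587 genes tested, and in the direction given in 2.87% of all. The values that follow are log2 differences between these A66 effects, with the adjusted p of the interaction test of edgeR over all genes, and none was called. For Atf6 the difference was 0.22 (adjusted p = 0.295), the largest of the 30 genes tested. For Ern1 it was 0.17 (adjusted p = 0.519), with levels of 112 and 112 CPM with A66 against 118 and 114 CPM in untreated cells. Dnajc3, a co-chaperone of BiP, stood at 0.16 (adjusted p = 0.538), with 88.45 and 85.5 CPM with A66 against 89.4 and 90.9 CPM in untreated cells, and 93.8 and 99.3 CPM with both agents against 91.35 and 88.0 CPM with palmitate. For Hsp90b1 it was 0.14 (adjusted p = 0.573). Sel1l gave 0.056 (adjusted p = 0.87), a value close to its SE of 0.055. No gene had the palmitate contrast on opposite sides in this way.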

How the results depend on the processing

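The medians of the 30 genes kept their direction in every comparison and moved by less than the spread between replicates (0.0341 on the log2 scale) under each alternative, leaving out single libraries included, except that the A66 average, near 0, ranged from -0.024 to 0.0039. Small medians moved by over 1.5 times: 0.020 for palmitate plus A66 against palmitate became 0.00068 with library size scaling, 0.0096 without palmitate plus A66 replicate 1, 0.011 without palmitate replicate 2 and 0.044 without palmitate replicate 1, and 0.055 for palmitate against untreated became 0.033 and the interaction median of 0.039 became 0.059 without palmitate replicate 1. The counts of called genes were less stable, and the cause was not tested. The number of all genes called could move with the setting too. For A66 against untreated cells it was 261 as reported, 205 with DESeq2, 209 with other libraries in the fit and 459 with no filter. Changes in the counts that follow are therefore not read as results about the 30 genes. For A66 against untreated, 1 call became 0 with DESeq2 and 0 with the other libraries in the fit, and ranged from 0 to 3 with libraries left out in turn. For palmitate against untreated, 1 became 4 with no filter on low counts and 2 with DESeq2 (0 to 4 with libraries left out). For palmitate plus A66 against palmitate, 1 became 0 with scaling by library size (0 to 1 with libraries left out). For palmitate plus A66 against A66, 5 became 8 with only those 4 libraries in the fit (2 to 6 with libraries left out). The averaged palmitate count of 7 ranged from 6 to 10, and from 5 to 10 with libraries left out. The averaged A66 count of 1 became 4 with library size scaling, 2 with no filter, 2 with the replicate block and 2 with the length offset (1 to 3 with libraries left out). The interaction stayed at 0 throughout. The replicate block, which rests on numbers that did not pair the samples, gave 1, 1, 1, 5, 0 and 7 calls in the other comparisons and changed none of those counts. Other libraries in the fit could not be tried for the interaction and averaged comparisons, which need all 8. Where a group was left with 1 library, it was assumed to vary like the others. Of the fold changes of members called, 115 of 120 kept their call under other settings and 95 of 124 with a library left out, and none changed sign. Lengths were known for 99.2% of genes tested.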
